A study of Mus musculus with 8 samples.

Results

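The genes that sense oxygen and set the amount of hypoxia-inducible factor (HIF) were examined in RAW264.7, a macrophage-like line of mouse origin, after treatment with recombinant FSTL1 (rFSTL1). The 9 members were chosen by gene symbol for their known roles, of 22013 genes in the deposited table, by a rule that uses no measured value, although earlier results of these data were known when it was written. Egln1 and Egln3, which are themselves induced by HIF, were kept apart from Hif1a, Epas1, Hif3a, Arnt, Vhl, Hif1an and Egln2, which were grouped as constitutive. Poly(A) RNA was sequenced from 4 libraries of cells given PBS and 4 of cells given the recombinant protein, at 100 ng/mL for 24 h by the study's methods. The labels name no engineered allele, and culture oxygen is not given in the sources used here. The labels do not say whether the 4 libraries of a group came from separate cultures, so p-values measure the spread between these libraries, which may be technical.

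HIF is a pair of an alpha subunit (HIF-1α from Hif1a, HIF-2α from Epas1, HIF-3α from Hif3a) and a beta subunit (from Arnt). When oxygen is present, prolyl hydroxylases (PHD1 from Egln2, PHD2 from Egln1, PHD3 from Egln3) modify the alpha subunit, the von Hippel-Lindau protein (from Vhl) then binds it, and a ubiquitin ligase marks it for destruction. FIH, encoded by Hif1an, hydroxylates an asparagine of the alpha subunit and blocks its coactivators. In low oxygen these steps slow and HIF raises its target genes, PHD2 and PHD3 among them, which closes a feedback loop. Macrophages use HIF-1α in inflammation as well as in hypoxia. Most of this control acts on protein, which RNA counts do not show.

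Libraries held 15183118 to 20234477 counts in the PBS group and 15062023 to 19260960 in the rFSTL1 group. Levels are given as CPM, counts brought to a common library total with TMM scaling. The summed level of 7 macrophage markers was 3844 to 4012 CPM under PBS and 3814 to 4035 CPM under rFSTL1, and 0 of the 7 were called by edgeR. Of the 7, Csf1r was highest at 1210 to 1314 CPM and Adgre1 lowest at 2.74 to 4.43 CPM over all libraries. Markers of fibroblasts, epithelial cells, endothelial cells and lymphocytes summed to at most 1.09 CPM per list and library. The defining markers Pdgfra, Epcam, Cdh1, Cd3e and Nkg7 were at 0 in all libraries. Over all genes, the rFSTL1 libraries differed most between replicates 2 and 4. The chi-square of the counts over its degrees of freedom was 19.05 for that pair. It was 6.17 to 12.46 for the other pairs of replicate 1 or 2 with 3 or 4. For replicates 1 and 2 it was 5.64, little below the 6.17 of replicates 1 and 3, and for 3 and 4 it was 4.51. Between PBS libraries it was 3.05 to 4.23.

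Of the 9 oxygen-sensing genes, 6 had enough counts to be tested, and Egln3, Epas1 and Hif3a were at or near 0. None of the 6 passed the test, an adjusted p under 0.05 by edgeR's quasi-likelihood test over all 10748 tested genes with Benjamini-Hochberg adjustment. Among them, Egln1 was the 1 gene whose 4 rFSTL1 libraries all lay above the 4 PBS libraries, as held for 4.63% of all tested genes, with a log2 fold change of 0.21. Hif1a had a log2 fold change of -0.13 and Vhl one of 0.17. By this rule 0.344% of all tested genes were called, 0.326% as higher and 0.0186% as lower. DESeq2 called 0 of the 6 and 2.43% of all genes to which it gave an adjusted p. With sample quality weights, limma voom called 2 of the 6, Egln1 and Hif1a, and 4.22% of all tested genes. At an unadjusted p under 0.05, edgeR gave 3 of the 6 (Egln1, Hif1a and Vhl), against 15.9% of all tested genes. A p as small as that of Egln1 was held by 1.7% of tested genes, and one as small as that of Hif1a by 8.26%. In bulk RNA, a change in the level per cell and a change in the share of cells that carry a transcript cannot be told apart.

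Of the alpha subunits, Hif1a supplied almost every read. It had 43384 counts over the 8 libraries, against 11 for Hif3a and 1 for Epas1. Hif3a had 0 to 4 counts in a library, and its 5 counts under PBS and 6 under rFSTL1 give no usable fold change. The single Epas1 count was in rFSTL1 replicate 4. A library with 0 counts allows a level of up to 0.148 to 0.2 CPM (3 counts, counting error only) for these genes.

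Hif1a (ENSMUSG00000021109) was at 322, 333, 319 and 328 CPM in PBS replicates 1 to 4 and at 320, 312, 278 and 281 CPM in rFSTL1 replicates 1 to 4. The PBS libraries lay close together, and rFSTL1 replicates 3 and 4 lay well below them, while rFSTL1 replicate 1 was inside their range. Over all genes the rFSTL1 libraries also differed, most between replicates 2 and 4, and the part of this in the Hif1a difference was not tested. Without rFSTL1 replicate 3 or 4 the log2 fold change of Hif1a was -0.10 in each case. The group means were 325 ± 6.45 CPM under PBS and 298 ± 21.5 CPM under rFSTL1 (SD, n = 4). The log2 fold change was -0.13 with a standard error of 0.05 and an interval of -0.23 to -0.02 (95%), and the edgeR adjusted p with Benjamini-Hochberg adjustment was 0.234. A two-sided exact permutation test over the 70 assignments of the libraries gave p = 0.0571, where 0.0286 is the smallest possible. By limma voom with sample quality weights the log2 fold change was -0.16, with an adjusted p of 0.0435. After correction for transcript length and GC content in each library, which was chosen after seeing the data, it was -0.05 (edgeR adjusted p = 0.477).

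Arnt (ENSMUSG00000015522), the constitutive partner of every alpha subunit, was at 74.4 to 77.5 CPM under PBS and 69.8 to 74.6 CPM under rFSTL1. The ranges overlapped only by a narrow margin, and the difference was small. Its log2 fold change was -0.07 with a standard error of 0.04 (edgeR adjusted p = 0.461, exact permutation p = 0.0571). The ratio of Hif1a to Arnt counts within a library, which no scaling of library totals can change, was 2.09 ± 0.05 on the log2 scale under PBS and 2.04 ± 0.15 under rFSTL1 (SD, n = 4). In that ratio rFSTL1 replicates 1 and 2, both at 2.16, stood at the highest PBS value and replicates 3 and 4, at 1.90 and 1.91, below it.

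The prolyl hydroxylases were carried by Egln1 and Egln2. Egln3 (ENSMUSG00000035105), the most strongly HIF-inducible of the 3 in many cells, had 0 counts in all 8 libraries, so no induction of it was detectable at this depth under rFSTL1. Egln1 (ENSMUSG00000031987), which encodes the main oxygen sensor PHD2, was at 50.1, 50.15, 50.8 and 43.8 CPM in PBS replicates 1 to 4. Under rFSTL1 it was at 55.7, 58.9, 56.5 and 54.8 CPM. The lowest rFSTL1 library was above the highest PBS library, and PBS replicate 4 stood well under the other PBS libraries. Over all tested genes, 8.16% had groups that did not overlap, 4.63% with every rFSTL1 library above and 3.53% with every rFSTL1 library below the PBS libraries.

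The group means of Egln1 were 48.7 ± 3.32 CPM under PBS and 56.5 ± 1.75 CPM under rFSTL1 (SD, n = 4). Its log2 fold change was 0.21, a fitted change of 15.8%, with a standard error of 0.06 and an interval of 0.09 to 0.33 (95%). The edgeR adjusted p with Benjamini-Hochberg adjustment was 0.119, and the two-sided exact permutation test gave p = 0.0286, the smallest that 4 against 4 libraries allow. In order of the edgeR p-value it was number 183 of 10748 genes. DESeq2 gave an adjusted p of 0.0615 and limma voom with sample quality weights one of 0.0428. Without PBS replicate 4 the log2 fold change was 0.16 (edgeR adjusted p = 0.338). After correction for transcript length and GC content it was 0.15 (edgeR adjusted p = 0.305). In the same library, HIF target genes were also low, as given with those lists.

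Egln2 (ENSMUSG00000058709), which encodes PHD1 and is known as induced by oestrogen rather than by HIF, was at 27.3 to 29.4 CPM under PBS and 27.2 to 32.2 CPM under rFSTL1. The rFSTL1 libraries spread on both sides of the PBS range. The log2 fold change was 0.06 with an interval of -0.09 to 0.20 (95%) and an edgeR adjusted p of 0.706 (exact permutation p = 0.457), and it turned to -0.04 after the length and GC correction. The ratio of Egln1 to Egln2 counts within a library was 0.76 ± 0.13 on the log2 scale under PBS and 0.92 ± 0.12 under rFSTL1 (SD, n = 4), with overlap between the groups. Egln1 made up 49.9 ± 2.28% of the PHD transcripts under PBS and 52.7 ± 2.07% under rFSTL1 (SD, n = 4), counted as CPM per kilobase of the longest transcript. This share depends on the length used. With the summed length of all annotated exons, Egln1 was at 13.55 and Egln2 at 10.24 CPM per kilobase under PBS. Under rFSTL1 they were at 15.71 and 10.65. Whether the response of Egln1 differed from that of Egln2 was not tested beyond these values.

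The start regions of the PHD genes and of Hif1a are shown because HIF binds a short core sequence near the genes it induces, and Egln1 and Egln3 are known as such genes. Each window runs from 250 bases before to 50 bases after the start in RefSeq (GRCm38.p6), 5′ to 3′ along the gene. Capitals mark ACGTG or GCGTG on either strand.
Egln1 (chr8:124949205-124949504, minus strand): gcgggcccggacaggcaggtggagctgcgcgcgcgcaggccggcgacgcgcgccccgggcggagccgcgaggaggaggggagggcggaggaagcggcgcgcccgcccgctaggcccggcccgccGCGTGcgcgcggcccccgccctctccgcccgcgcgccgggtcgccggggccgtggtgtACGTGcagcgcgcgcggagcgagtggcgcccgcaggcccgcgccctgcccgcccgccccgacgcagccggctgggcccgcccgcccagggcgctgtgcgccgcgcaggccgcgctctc
Egln2 (chr7:27166753-27167052, minus strand): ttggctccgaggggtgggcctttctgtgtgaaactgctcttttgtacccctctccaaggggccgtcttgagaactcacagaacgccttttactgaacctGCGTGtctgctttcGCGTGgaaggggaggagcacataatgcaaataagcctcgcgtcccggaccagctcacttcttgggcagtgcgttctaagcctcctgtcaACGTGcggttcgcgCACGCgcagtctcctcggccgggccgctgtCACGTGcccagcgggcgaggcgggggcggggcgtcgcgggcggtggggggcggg
Egln3 (chr12:54203825-54204124, minus strand): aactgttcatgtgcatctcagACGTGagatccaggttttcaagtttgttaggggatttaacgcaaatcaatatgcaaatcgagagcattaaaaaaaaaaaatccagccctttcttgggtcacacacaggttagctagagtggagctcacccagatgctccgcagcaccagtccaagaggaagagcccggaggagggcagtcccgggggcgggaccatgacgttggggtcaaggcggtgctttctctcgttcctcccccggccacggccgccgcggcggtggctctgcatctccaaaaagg
Hif1a (chr12:73907617-73907916, plus strand): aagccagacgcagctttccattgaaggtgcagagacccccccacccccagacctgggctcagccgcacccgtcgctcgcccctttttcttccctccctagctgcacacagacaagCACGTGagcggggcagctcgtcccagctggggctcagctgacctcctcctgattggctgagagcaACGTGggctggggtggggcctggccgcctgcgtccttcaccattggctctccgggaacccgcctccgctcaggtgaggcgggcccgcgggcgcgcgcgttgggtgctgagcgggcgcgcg

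Egln1 had 2 matches, GCGTG at 126 and ACGTG at 68 bases before the start. The Egln2 window shown had 6 matches, of which a pair are the same CACGTG read on both strands. A second Egln2 start had 1 match. Egln3 had 1 match, at 229 bases before the start. Hif1a had 3 matches, of which a pair are the same CACGTG read on both strands. Hif3a had 2 and Arnt had 1, the Vhl and Hif1an windows had 0, and for Epas1 no window was used. Such letters are common, since 43.8% of all 32851 windows and 69.3% of tested genes with a window held at least 1 match. A match is a description of the sequence and not a binding site.

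Vhl (ENSMUSG00000033933), the part of the ligase that recognises hydroxylated HIF, was at 27.3, 25.2, 23.6 and 23.5 CPM in PBS replicates 1 to 4. In rFSTL1 replicates 1 to 4 it was at 28.3, 30.2, 27.7 and 26.1 CPM. PBS replicate 1 lay above rFSTL1 replicate 4, and every other PBS library lay below all rFSTL1 libraries. The mean was 24.9 ± 1.78 CPM under PBS and 28.1 ± 1.67 CPM under rFSTL1 (SD, n = 4). The log2 fold change was 0.17 with a standard error of 0.07 and an interval of 0.02 to 0.33 (95%). The edgeR adjusted p with Benjamini-Hochberg adjustment was 0.26 and the exact permutation p was 0.0571. Hif1an (ENSMUSG00000036450), which encodes FIH, was at 39.5 to 44.0 CPM under PBS and 39.5 to 44.6 CPM under rFSTL1. Its log2 fold change was -0.02 with an interval of -0.15 to 0.10 (95%) and an edgeR adjusted p of 0.884 (exact permutation p = 0.657), and it was -0.04 after the length and GC correction.

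**Figure D1:**
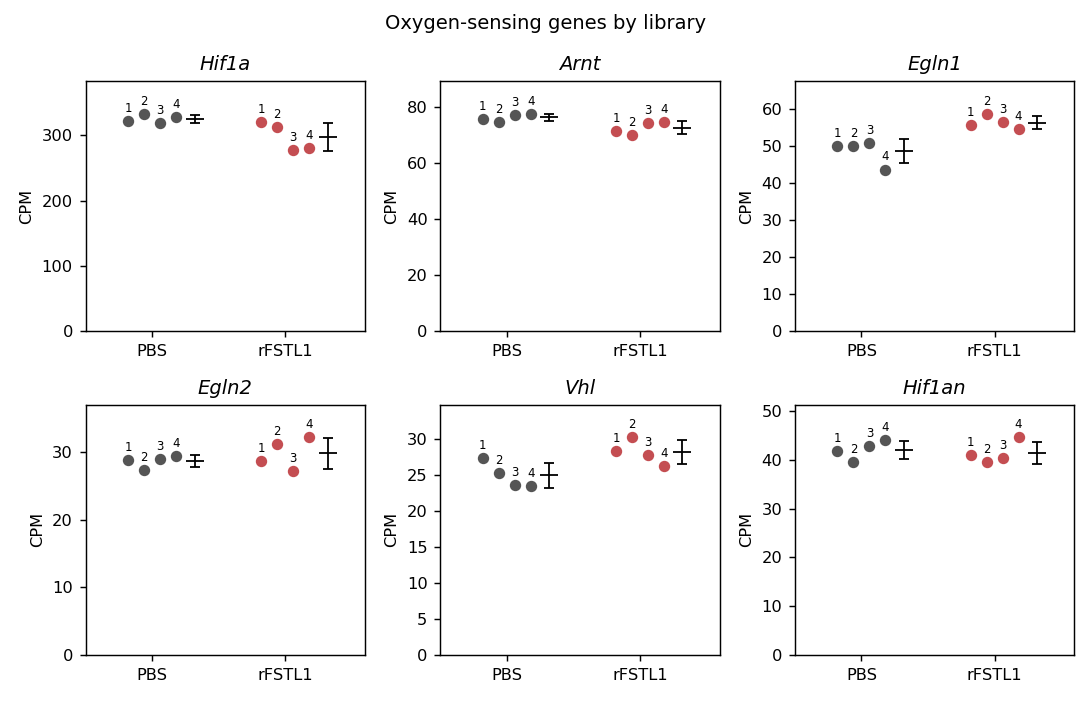
Level of each of the 6 measured oxygen-sensing genes in CPM (vertical axes from 0) in the PBS and rFSTL1 libraries, with replicate numbers beside the points and the mean ± SD (n = 4) as a bar to their right. Egln1 was at 43.8 to 50.8 CPM under PBS and 54.8 to 58.9 CPM under rFSTL1 with no overlap, and the other 5 genes overlapped.

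**Figure D2:**
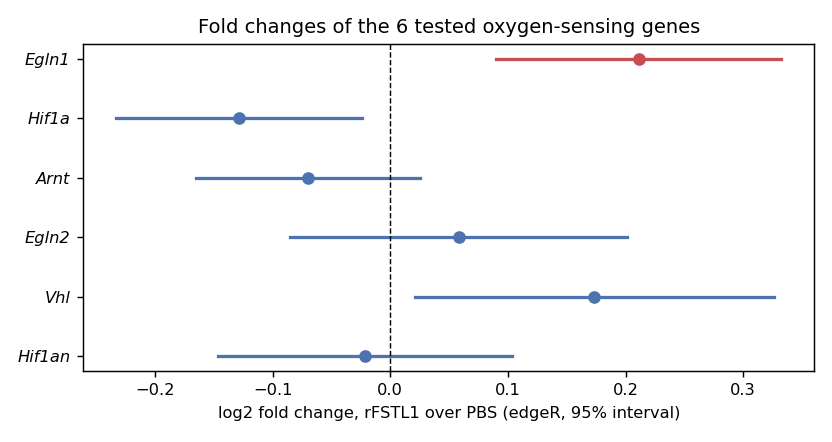
Log2 fold change of rFSTL1 over PBS for the same 6 genes from edgeR, with 95% intervals as lines and Egln1 in red. The intervals of Egln1 (0.09 to 0.33) and Vhl (0.02 to 0.33) lay above 0 and that of Hif1a (-0.23 to -0.02) below it, before adjustment over all genes.

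The ratios of Egln1 and of Vhl to Hif1a within a library did not overlap between the groups. The log2 ratio of Egln1 to Hif1a counts was -2.68, -2.73, -2.65 and -2.90 in PBS replicates 1 to 4. It was -2.52, -2.41, -2.30 and -2.36 in rFSTL1 replicates 1 to 4. Every rFSTL1 library was above every PBS library, by 0.35 in the means (-2.74 ± 0.11 and -2.40 ± 0.09, SD, n = 4). The ratios carry no correction for length and GC content, after which the separate log2 fold changes of Egln1 and Hif1a were the smaller 0.15 and -0.05. The log2 ratio of Vhl to Hif1a was -3.71 ± 0.11 under PBS and -3.40 ± 0.07 under rFSTL1 (SD, n = 4), also without overlap. The ratio to Hif1a was higher in this way for 13.1% of all tested genes. These ratios were formed after the single genes had been seen and are given without a test. The ratio of Egln1 to Vhl overlapped between the groups, at 0.97 ± 0.10 and 1.01 ± 0.05 on the log2 scale (SD, n = 4).

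**Figure D3:**
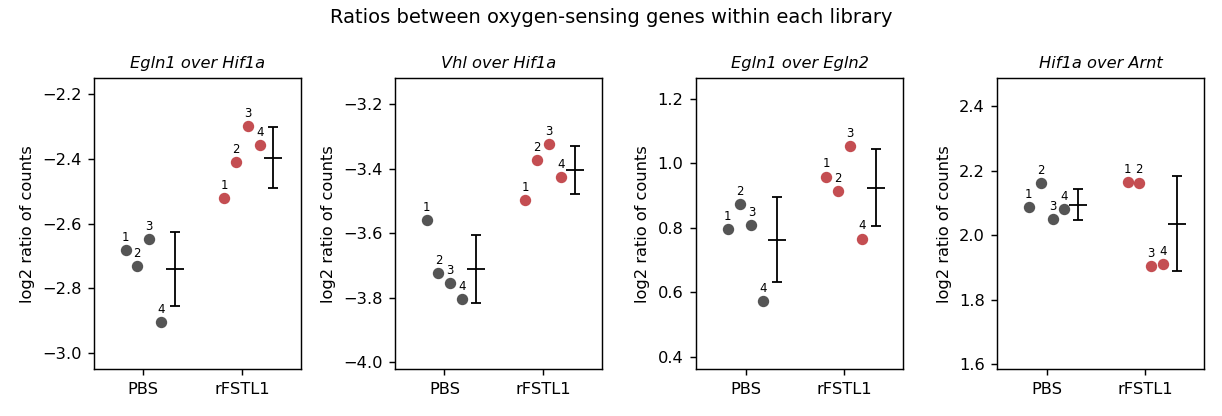
Log2 ratio of the counts of gene pairs within each library (all axes span the same width), for PBS and rFSTL1, with replicate numbers beside the points and the mean ± SD (n = 4) as a bar. Egln1 over Hif1a and Vhl over Hif1a did not overlap between the groups, while Egln1 over Egln2 and Hif1a over Arnt did.

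Compared per kilobase of the longest GENCODE transcript under PBS, Hif1a was the most abundant at 68.8 ± 1.36 CPM per kilobase (SD, n = 4). Arnt followed at 17.6 ± 0.32, above the ranges of all the genes after it, and then came Egln2 at 13.6 ± 0.43 and Egln1 at 13.55 ± 0.92, whose ranges overlapped. Vhl was at 8.91 ± 0.64 and Hif1an at 6.79 ± 0.31 CPM per kilobase, with no overlap between them. Under rFSTL1, Egln1 reached 15.7 ± 0.49 CPM per kilobase and its range of 15.2 to 16.4 met that of Arnt, at 16.1 to 17.2. The places of Arnt, Egln1 and Egln2 depended on the length used. With the summed length of all annotated exons, Hif1a stayed first under PBS at 55.2 CPM per kilobase. Egln1 followed at 13.55, above Egln2 at 10.2 and Arnt at 9.51.

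In GENCODE, 2 gene models share exonic bases with Hif1a, Gm15283 on the opposite strand (330 bases) and Gm49321 on the same strand (148 bases). Neither is a row of the count table. Egln2 shares 11 exonic bases with Cyp2t4, which had 0 to 2 counts per library. Egln1, Egln3, Vhl and Hif1an had no overlapping gene. How the authors assigned shared reads is not given in the sources used here.

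The partners that build the VHL ligase were all measured. Elob, which encodes elongin B, rose from 54.6 ± 1.76 to 66.3 ± 3.72 CPM (SD, n = 4). Its log2 fold change was 0.28 with a standard error of 0.05 (edgeR adjusted p = 0.0301 with Benjamini-Hochberg adjustment). Its 4 rFSTL1 libraries all lay above the 4 PBS libraries, as held for 4.63% of all tested genes. The call was lost without any 1 of the 4 PBS libraries or rFSTL1 replicate 3, where the edgeR adjusted p was 0.0544 to 0.156 and the log2 fold change 0.27 to 0.30. It was also lost after the length and GC correction, with a log2 fold change of 0.09 (edgeR adjusted p = 0.464). Rbx1, the RING subunit, was at 0.10 (0.16 after that correction), and Eloc (elongin C) and Cul2 (the scaffold) were at 0.05 and -0.03 on the log2 scale, none of them called by edgeR.

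Of the genes around HIF activity, edgeR called 0 of the 3 measured coactivators, inhibitors and dimer partners and 0 of the 9 genes for the stability of HIF-1α and the PHDs. At an unadjusted p under 0.05 edgeR gave 1 and 3 of them (15.9% of all tested genes), DESeq2 called 0 and 0, and limma voom with sample quality weights called 1 and 1 (4.22% of all tested genes). Cited2, a HIF-inducible protein that competes with HIF-1α for the coactivators p300 and CBP, was at 230 to 244 CPM under PBS and 250 to 272 CPM under rFSTL1. Its groups did not overlap, and its log2 fold change was 0.14 (edgeR adjusted p = 0.157), or 0.07 after the length and GC correction (edgeR adjusted p = 0.344). Crebbp, which encodes CBP, was at -0.06 on the log2 scale. Siah2, a ubiquitin ligase that degrades PHDs, had a log2 fold change of 0.27 with a standard error of 0.10 (edgeR adjusted p = 0.213). Usp20, which encodes a deubiquitinase that acts on HIF-1α, had one of 0.17. Ahr and Arnt2 were at or near 0 and were not tested.

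Among 8 measured genes for other oxygen-dependent dioxygenases, edgeR called 1, against 0.344% of all tested genes. Jmjd6, a lysyl hydroxylase, rose from 78.6 to 92.5 CPM, a log2 fold change of 0.24 with a standard error of 0.04 (edgeR adjusted p = 0.0301 with Benjamini-Hochberg adjustment). Its 4 rFSTL1 libraries all lay above the 4 PBS libraries, as held for 4.63% of all tested genes. The call was lost without any 1 of the 4 PBS libraries or rFSTL1 replicate 3 (edgeR adjusted p = 0.0604 to 0.162), with log2 fold changes of 0.22 to 0.25. With the replicate number as a block it was also lost (0.23, edgeR adjusted p = 0.0523). It was kept after the length and GC correction (0.20, edgeR adjusted p = 0.0151). Kdm4b, a histone demethylase known as a HIF target, had a log2 fold change of 0.34 with an edgeR adjusted p of 0.0526, and the DESeq2 adjusted p was 0.00586. After the length and GC correction its log2 fold change was 0.27 (edgeR adjusted p = 0.0348, or 0.0516 with a replicate block as well).

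Known target genes of HIF were counted as 2 lists. Of the glycolytic HIF targets, edgeR called 4 of 19 as higher and 0 as lower (Slc2a1, Pfkl, Pfkp and Pfkfb3), with log2 fold changes of 0.38, 0.25, 0.29 and 0.27. Slc2a1 encodes the glucose transporter GLUT1, Pfkl and Pfkp are phosphofructokinases, and Pfkfb3 makes their activator. Slc16a3, a lactate exporter, had a log2 fold change of 0.32 (edgeR adjusted p = 0.0542, or 0.0312 after the length and GC correction). Of the other HIF targets, 7 of 21 were called as higher and 0 as lower (among them Vegfa, Adm, Ndrg1, Bnip3, Fam162a and Hmox1). Adm, which encodes the vasodilator adrenomedullin, had a log2 fold change of 1.02 with a standard error of 0.18 (edgeR adjusted p = 0.0214). Vegfa (an angiogenic factor) was at 0.55, Ndrg1 at 0.51, Bnip3 (a mitophagy receptor) at 0.43, Hmox1 (heme oxygenase) at 0.37 and Fam162a at 0.34 on the log2 scale. Called as higher by edgeR were 0.326% of all tested genes. DESeq2 called 13 of the glycolytic and 8 of the other targets as higher, against 1.58% of all genes to which it gave an adjusted p. Not all targets rose, since the log2 fold change was below 0 for 1 of the 19 glycolytic and 4 of the 21 other targets. It was below 0 for 5161 of all 10748 tested genes. The median log2 fold change was 0.19 for the glycolytic list and 0.325 for the other list, against 0.01 for all tested genes. Egln1, at 0.21, lay near the former median. Both lists were written with earlier results of these libraries known and hold genes that were already known to be higher, so the counts are no independent evidence.

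The numbers of called targets depended on single libraries. Without PBS replicate 2, 3 or 4 or without rFSTL1 replicate 3, edgeR called 1 of the glycolytic targets, and 8 without rFSTL1 replicate 2. For the other targets the number was 4 without PBS replicate 2 or 3 or rFSTL1 replicate 3, 5 without PBS replicate 4 or rFSTL1 replicate 1, and 10 without rFSTL1 replicate 4. After the length and GC correction, 11 glycolytic and 10 other targets were called. Relative to the PBS mean, the mean log2(CPM + 1) of the glycolytic targets was -0.10 in PBS replicate 4 and 0.01 to 0.08 in the other PBS libraries, against 0.16 to 0.24 under rFSTL1. For the other targets it was -0.18 in PBS replicate 4 and 0.04 to 0.09 in the other PBS libraries, against 0.23 to 0.36 under rFSTL1. In both lists, as for Egln1, PBS replicate 4 was the lowest library and every rFSTL1 library lay above every PBS library. For the lists this separation is no independent evidence, since they hold genes already known to be higher. The part of PBS replicate 4 in the Egln1 difference is given by the value without it, 0.16.

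**Figure D4:**
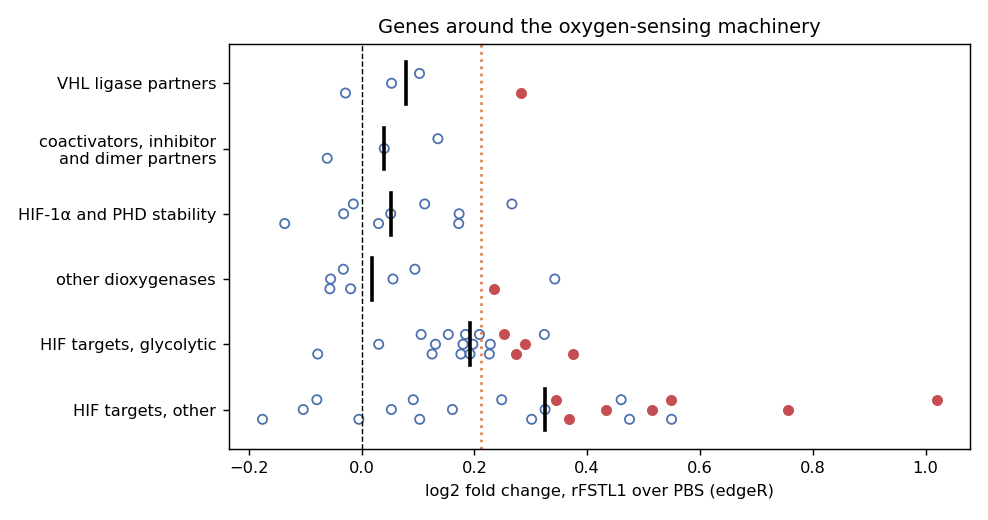
Log2 fold change of rFSTL1 over PBS (edgeR) for the tested genes of 6 lists around the oxygen-sensing machinery, with genes called at an adjusted p under 0.05 as filled red points, the others as open points and each list's median as a black bar. The dotted line is Egln1 at 0.21, and the medians were 0.08, 0.04, 0.05, 0.02, 0.19 and 0.325 from top to bottom.

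The 5 tested genes whose pattern over the 8 libraries was nearest to that of Egln1 were found by the mean absolute difference in log2(CPM + 1) relative to the PBS mean. They were Pgk1 (0.0151), Zfp580 (0.0283), Hk2 (0.0287), Tpi1 (0.0295) and Sap30 (0.0327), against a median of 0.159 over all tested genes. Pgk1, Hk2 and Tpi1 encode glycolytic enzymes of the target list, and Sap30 a subunit of a histone deacetylase complex. Their log2 fold changes were 0.20, 0.26, 0.23, 0.18 and 0.20 in that order, and edgeR called none of the 5, with adjusted p-values of 0.0615 to 0.316. After the length and GC correction the log2 fold changes of Zfp580, Tpi1 and Sap30 were 0.12, 0.11 and 0.11, while those of Pgk1 and Hk2 were 0.17 and 0.21 and passed the threshold (edgeR adjusted p = 0.032 and 0.039). Since they were picked for following Egln1, small p-values were fixed by the choice and nothing is read from them. At an unadjusted p under 0.05, edgeR gave 4 of the 5 (15.9% of all tested genes), all but Zfp580. DESeq2 and limma voom with sample quality weights each called those 4, and DESeq2 gave Zfp580 no adjusted p. The nearness is a description of these libraries, which share one scaling, and carries no test.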

How the data were processed

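Poly(A) RNA of 8 RAW264.7 libraries was measured, 4 under PBS and 4 under rFSTL1, with groups and replicate numbers from the labels. The authors deposited expected counts (estimated counts, not normalized) for 22013 Ensembl genes, of whose nonzero values 13% were not whole, and they were rounded. The submitters' processing notes list Bowtie2 2.2.8, HISAT2, StringTie 1.3.1 and DESeq2, without roles, and the genome build is not given in the sources used here. The 112 rows without a symbol kept their identifier.

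Genes were kept by filterByExpr (minimum count 10) and tested with edgeR 4.0.16 (TMM scaling, quasi-likelihood F test) under R 4.3.3, and p-values were adjusted by Benjamini-Hochberg over all tested genes. Standard errors came from the F statistic. Single genes were also compared by exact permutation of log2(CPM + 1). Alternatives were DESeq2 1.42.0, limma 3.58.1 voom, other scalings and filters, a threshold of 0.1, leaving out each library and the replicate number as a block. Added after seeing the data were a correction for transcript length and GC content (natural splines of 4 degrees of freedom per library, known for 99.7% of tested genes) and the merged exon length.

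Named are the 9 members, in each list around them the called genes and the 2 with the largest absolute fold change, and the 5 genes most like Egln1. Eloc, Cul2, Ahr and Arnt2 were named besides to account for small lists, and some genes that the rule names are not reported here. The members and lists were chosen with earlier results of these data known. Lengths came from GENCODE vM21 and promoters from RefSeq (GRCm38.p6), where 8 of 9 members were found. Counting error alone is covered by the limit of 3 counts. The fit was tested on simulated data. No pair of libraries within a group agreed within sampling noise (lowest chi-square over its degrees of freedom 3.05).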

Additional observations from a re-analysis of the deposited data

Results flagged for a closer look

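In PBS replicate 4, Egln1 was at 43.8 CPM, while the other PBS libraries lay at 50.1 to 50.8 CPM. The gap to the nearest library was 0.897 of the range of the group, above Dixon's critical value (95%) for 4 libraries. Of 12 groups tested in this way, for 6 genes under PBS and rFSTL1, 1 held such a library, and chance gives about 0.6. Without this library the log2 fold change of Egln1 was 0.16 in place of 0.21.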

How the results depend on the processing

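With edgeR, 37 genes were called, 35 higher and 2 lower. DESeq2 called 191 (124 and 67), limma voom, weighted by sample quality, 454 (244 and 210), upper-quartile scaling 56, all genes with at least 1 count 127 (101 and 26), a threshold of 0.1 gave 133 (111 and 22), the length and GC correction 76, and that correction with the replicate block 74. Leaving out 1 library gave 11 (without PBS replicate 2) to 99 (without rFSTL1 replicate 1). Of the oxygen-sensing genes 0 were called, and 2 by limma voom, and leaving out 1 library gave 0 each time. Of the genes in the 6 lists around them 13 were called, all higher. DESeq2 gave 24, limma voom 30, all genes with at least 1 count 23, a threshold of 0.1 gave 25, the correction 23 and with the replicate block 21, and leaving out 1 library 5 to 17. Why the tools differ was not tested.

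Over 102 refits of the 6 measured genes, 98 kept direction and side of the threshold, 2 passed it (Egln1 and Hif1a by limma voom) and 2 reversed, Egln2 to -0.043 after the correction and to -0.045 with the replicate block too. Leaving out 1 library moved the log2 fold change of Egln1 between 0.16 and 0.23 and that of Hif1a between -0.17 and -0.10. Replicate numbers did not pair the libraries, since correlations of same-numbered deviations were -0.09, 0.08, -0.01 and 0.00. With the replicate block, 41 genes, 0 oxygen-sensing genes and 15 list genes were called, Egln1 was at 0.21 on the log2 scale, and the adjusted p of Jmjd6 was 0.0523. Totals of 11 counts or fewer over 8 libraries limit what can be said of Hif3a, Epas1 and Egln3.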
